A study of Mus musculus with 4 samples.

Results

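Fibroblast growth factors (FGFs) are secreted proteins that bind receptor tyrosine kinases at the cell surface together with heparan sulfate and signal inside the cell through the RAS and ERK kinases. In the developing lung, FGF10 and FGF7 from the mesenchyme act on an epithelial splice form of FGFR2, and FGF9 from the pleural mesothelium and epithelium acts on receptors of the mesenchyme. Sprouty proteins are induced by such signals and restrain them. The genes described here are 4 FGF ligand genes (Fgf7, Fgf9, Fgf10, Fgf18), the 4 receptor genes (Fgfr1, Fgfr2, Fgfr3, Fgfr4) and 2 Sprouty genes (Spry1, Spry2). They were chosen by symbol, and every probe set annotated to one of these symbols alone was taken, without regard to its values. These 10 genes, of 18193 named on the arrays, had 22 probe sets of 45137 other than controls, 18 on MOE430A and 4 on MOE430B.

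The series, titled for the role of skeletal muscle in lung development, compared lungs of E18.5 mouse embryos lacking both Myf5 and MyoD (Myf5-/-:MyoD-/-, genotype given as a BALB/c Myf5:Myod null) with wild type BALB/c lungs of the same age. Myf5 and MyoD are transcription factors that start the skeletal muscle programme, and embryos without both form no skeletal muscle and make no breathing movements before birth. For each array, 6 µg of total RNA was turned into biotinylated cRNA, and 1 array per genotype was run on each of a pair of Affymetrix designs, MOE430A and MOE430B, 4 in all. There was no replicate, so no test between genotypes was possible and no p-value is given. The labels give neither the sex of the embryos nor the number pooled in an RNA sample. In a whole-lung sample, fewer cells of a type and less RNA per cell cannot be told apart.

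Of the targeted genes, Myf5 gave no measurable fold and Myod1 went against the labels, while 3 of 4 passing skeletal muscle markers were lower in the array labelled double knockout. The Myf5 probe set read 8.9 on the array labelled double knockout and 110.5 on the array labelled wild type, both below the floor used here for low signals (283.8 on MOE430A). The Myod1 probe set on MOE430A read 1081 on the array labelled double knockout and 85.0 on the array labelled wild type, at least 3.81-fold higher. It passed the filter described below only through the array labelled double knockout, so the filter fixed its direction. Another Myod1 probe set, on MOE430B, was below the filter, at 607.2 (labelled double knockout) and 337.2 (labelled wild type). The sources used here do not say whether these probe sets fall inside the deleted sequence, and one that falls outside it checks nothing. Genotypes are therefore named as labelled, with DKO standing beside a value for the array labelled double knockout and WT for the array labelled wild type. Every direction below rests on those labels. The 4 passing skeletal muscle markers, of 12 listed, had a median log2 ratio of -0.90. Mylpf, a fast myosin light chain, had 220.7 (DKO) and 916.9 (WT), at least 3.23-fold lower, though it passed the filter below only through the WT array. Myl1 had 834.4 (DKO) and 1748 (WT), and Acta1 had 3809 (DKO) and 6305 (WT). Ckm, a creatine kinase that heart muscle also makes, was the exception with 42727 (DKO) and 35417 (WT) on MOE430A. Below the filter, Tnnc2 read 45.8 (DKO) and 640.2 (WT), and Tnni2 read 37.9 (DKO) and 451.2 (WT) by its brightest probe set. In both, and in Myh3 with 32.5 (DKO) and 292.3 (WT), the DKO signal lay below the floor. The other listed markers below the filter differed less. Myog read 360.3 (DKO) and 369.5 (WT), Tnnt3 305.7 (DKO) and 355.2 (WT), and Myh8 297.8 (DKO) and 372.0 (WT). Actn3, Neb and the other Tnni2 probe sets had both signals below the floor. Lung epithelium was present by its markers, with Sftpc, a surfactant protein, at 113337 (DKO) and 78525 (WT) on MOE430A and Ager, of alveolar type I cells, at 137831 (DKO) and 133872 (WT) on MOE430B. Markers of heart muscle were also bright in both arrays of MOE430A, with 10 of 10 passing and summed signals of 346575 (DKO) and 308840 (WT). Markers of thymocytes and lymphocytes were lower in 10 of 10 passing genes of 11 listed, with a median log2 ratio of -3.06 and summed signals of 2859 (DKO) and 23684 (WT) on MOE430A. The 9 of these genes read on MOE430A passed the filter only through the WT array, so their direction was fixed by it. In 4 of them the DKO signal lay below the floor. Cd8a, read on MOE430B, had -0.3, and its 5 passing probe sets ran from -2.7 to -0.3. Thymic epithelium markers had a median of -0.46 over 6 passing genes of 9, 4 of them lower. Prss16, Tbata and Psmb11 passed only through the WT array and Krt5 only through the DKO array, so the filter fixed their directions. Foxn1 had -0.02. Ccl25 had 2 passing probe sets, at 0.57 and -3.11, the second with its DKO signal below the floor. Xist, the RNA of the inactive X chromosome, read 2749 on the array labelled double knockout and 7600 on the array labelled wild type, so sex and genotype cannot be told apart. No deposited signal was 0, and the part of these differences in the FGF values was not tested.

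Each value is a MAS5 signal on a linear scale, and log2 ratios are of the array labelled double knockout over the array labelled wild type of the same design, after 1 scale factor per design. A probe set was counted as measured, or passing, when at least 1 of its signals was at or above the median signal of the design, 787.4 on MOE430A and 855.1 on MOE430B. Of the 22 probe sets 16 passed, 12 of 18 on MOE430A and 4 of 4 on MOE430B. These represented 8 of the 10 genes. The only probe sets of Fgf10 and Fgf18 did not pass.

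No FGF, receptor or Sprouty probe set that passed differed by 2-fold between the labelled genotypes, where 3.85% of all passing probe sets on MOE430A and 17.7% on MOE430B did so in either direction. Of the 16, 7 read higher and 8 lower in the arrays labelled double knockout, 1 had a log2 ratio of 0.00, and the median was -0.03. At 1.5-fold, 0 of 12 on MOE430A differed, against 13.7% of all passing probe sets. On MOE430B, 1 of 4 was at least 1.5-fold higher and 0 of 4 lower, against 18.6% and 15.5%. That split of all MOE430B probe sets, 2404 higher and 1996 lower, became 1512 higher and 2501 lower with a loess curve removed. With so few members, neither share is a result about them. The log2 ratios of the passing members ran from -0.45 to 0.71.

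Without a replicate error, the spread of a log2 ratio was described in 2 ways. Both use the same 4 arrays, 1 per genotype and design, so neither stands in for the spread between replicate embryos. From the 100 probe sets that the designs share, a single log2 ratio had an SD of 0.245, but these probe sets are bright, with a median signal of 2791 on MOE430A and 11856 on MOE430B. Pairs of probe sets of 1 gene, which also differ in what they detect, gave an SD of 0.35 on MOE430A (2488 genes) and 0.66 on MOE430B (1836 genes). Of the 16 passing members, 9 lay more than 1 SD from 0 by the first measure and 1 lay more than 2 SD from 0. By the second, 4 lay more than 1 SD from 0 and 0 more than 2 SD. All passing probe sets had wider log2 ratios than either measure, with an SD of 0.47 on MOE430A and 0.82 on MOE430B. Their share beyond these limits was not counted, so the counts are not a result about the members.

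**Figure D1:**
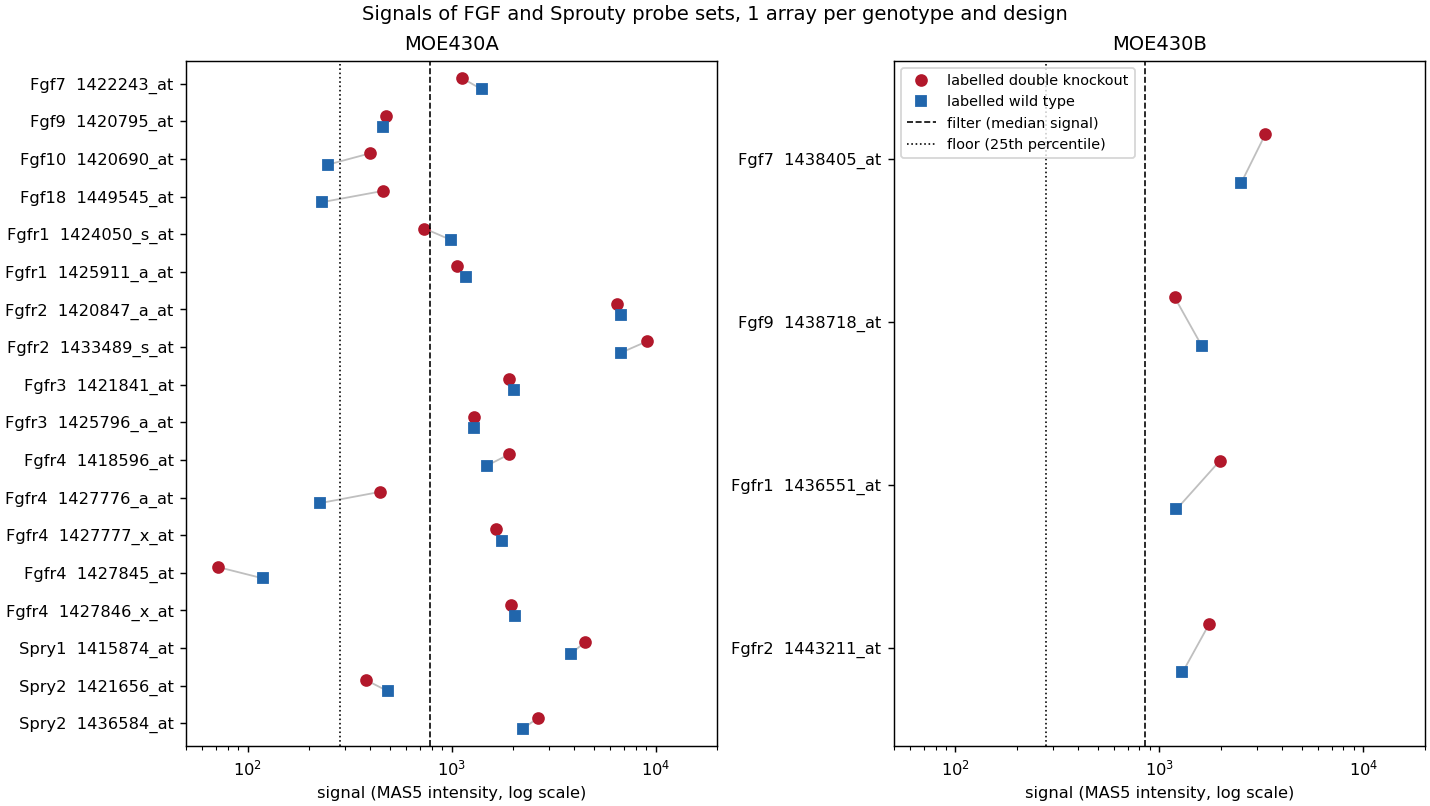
MAS5 signal (log axis) of each of the 22 probe sets on the arrays labelled double knockout (red circles) and wild type (blue squares), 1 array each, for MOE430A (left) and MOE430B (right); dashed and dotted lines mark the filter and the floor of each design. The Fgf10 and Fgf18 probe sets lie below the filter on both arrays, and the passing pairs lie close together.

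Among the ligands, none gave a direction that more than 1 probe set bore out. Fgf7, a mesenchymal growth factor for epithelium, was read on both designs. On MOE430A its probe set 1422243_at had 1122 on the array labelled double knockout and 1404 on the array labelled wild type, a log2 ratio of -0.32. On MOE430B its probe set 1438405_at had 3308 (DKO) and 2516 (WT), a log2 ratio of 0.39. The designs thus went opposite ways for Fgf7, by 0.72 on the log2 scale. A gene's brightest passing probe sets on the 2 designs differed with an SD of 0.80 over 1827 genes, and 45.6% of those genes had opposite signs.

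Fgf9, the ligand of mesothelium and epithelium, read 1191 on the MOE430B array labelled double knockout and 1622 on the one labelled wild type, 1.36-fold lower (log2 ratio -0.45). This was the lowest value of any passing member, and 20.7% of passing MOE430B probe sets were as low or lower. Its MOE430A probe set, designed from a RefSeq transcript, read 476.9 (DKO) and 458.8 (WT), below the filter, with nearly equal signals. Mesothelium markers had a median log2 ratio of 0.03 over 5 passing genes of 7, 3 higher and 2 lower, and summed signals of 13073 (DKO) and 12703 (WT) on MOE430A. The probe set of Wt1, a defining gene of mesothelium, was below the filter on both arrays, with 338.0 (DKO) and 317.4 (WT).

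Fgf10, the ligand that drives the budding of lung epithelium, was dim. Its probe set 1420690_at read 399.5 on the array labelled double knockout and 248.3 on the array labelled wild type, the second below the floor of 283.8. Fgf18, a ligand of lung mesenchyme and cartilage, read 461.3 (DKO) and 231.5 (WT), again with the labelled wild type array below the floor. Both were nominally higher in the array labelled double knockout, and with no filter the bounds were at least 1.41-fold for Fgf10 and at least 1.63-fold for Fgf18. Neither reached the filter of 787.4, and 1 probe set of 1 pair of arrays bears on each, so at this signal a difference could not be shown or measured. Markers of lung mesenchyme had a median log2 ratio of 0.06 over 9 of 9 genes, 5 of them higher. They ran from -0.78 (Col1a1, with 0.04 by its other probe set) to 1.46 (Tbx5, with 0.61 by its other probe set). Tcf21, a mesenchymal transcription factor, had 0.88 and Pdgfra -0.45. All 4 passing cartilage markers of 11 were lower, with a median of -0.44, and Col2a1, the collagen that defines cartilage, read 106.9 (DKO) and 1317 (WT), at least 4.64-fold lower. Col2a1 and Col11a1 passed the filter only through the WT array, so their direction was fixed by it, and Col9a1 and Hapln1 had -0.29 and -0.06. Another Col9a1 probe set had -1.14, with 653.6 (DKO) and 1436 (WT), and also passed only through the WT array.

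**Figure D2:**
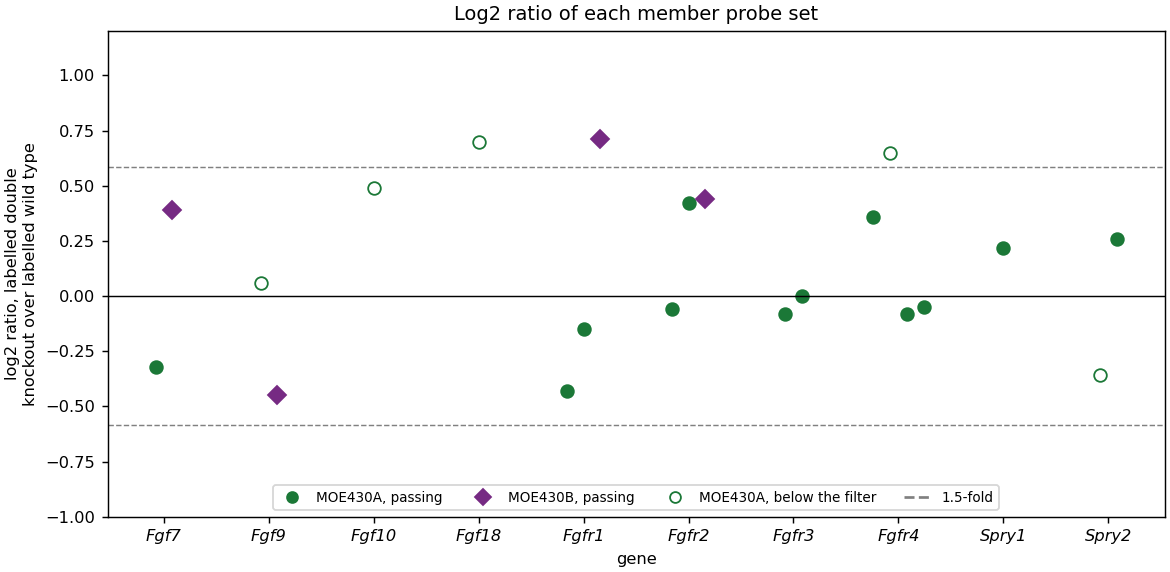
Log2 ratio of the array labelled double knockout over the array labelled wild type for each member probe set, by gene, with MOE430A as green circles and MOE430B as purple diamonds; open symbols did not pass the filter and dashed lines mark 1.5-fold. Fgf7, Fgfr1, Fgfr2 and Fgfr4 have passing probe sets on both sides of 0, and 1 Fgfr1 probe set is the only passing one beyond 1.5-fold. 1 Fgfr4 probe set with both signals below the floor is not drawn, and the open symbols of Fgf10, Fgf18 and Fgfr4 are lower bounds.

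Among the receptors, Fgfr1 and Fgfr2 had probe sets on both designs. Fgfr1, the main receptor of mesenchymal cells, had the highest value of any passing member. Its MOE430B probe set 1436551_at read 1988 on the array labelled double knockout and 1213 on the array labelled wild type, 1.64-fold higher (log2 ratio 0.71). This is 2.91 SD by the shared probe sets and 1.07 SD by pairs of probe sets of 1 gene, and 14.9% of passing MOE430B probe sets were as high or higher. Both MOE430A probe sets of Fgfr1 read lower in the array labelled double knockout. The first, 1424050_s_at, had 735.8 (DKO) and 988.1 (WT), a log2 ratio of -0.43, but passed the filter only through the WT array, which fixed its direction. The second, 1425911_a_at, had 1059 (DKO) and 1178 (WT), a log2 ratio of -0.15. The call of Fgfr1 as 1.5-fold higher therefore rests on 1 of its 3 probe sets, and on MOE430A alone Fgfr1 had a log2 ratio of -0.15.

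Fgfr2, the receptor through which FGF10 and FGF7 reach the epithelium, was bright. Probe set 1433489_s_at read 9072 on the array labelled double knockout and 6768 on the array labelled wild type (0.42). Probe set 1443211_at on MOE430B gave nearly the same ratio, with 1762 (DKO) and 1300 (WT), or 0.44. The third, 1420847_a_at, had 6483 (DKO) and 6735 (WT), or -0.06, so that 2 of 3 probe sets were higher. Of passing probe sets, 11.9% on MOE430A and 23.9% on MOE430B were as high as these first and second values. Epithelial and mesenchymal splice forms of Fgfr2 differ in 1 exon, and the sources used here do not say which forms each probe set detects. Markers of lung epithelium were higher in 7 of 9 genes, 3 of them at least 1.5-fold, where 9.44% of all passing genes were. These 3 were Scgb1a1, Epcam and Nkx2-1. Epcam read 0.94 on MOE430B but -0.06 on MOE430A, and Nkx2-1 passed the filter only through the DKO array. The 9 genes had a median log2 ratio of 0.52. Summed signals of the 7 read on MOE430A were 205606 (DKO) and 151350 (WT), of which Sftpc gave 113337 (DKO) and 78525 (WT). Those of the 2 read on MOE430B were 150577 (DKO) and 140506 (WT). Cdh1, the epithelial cadherin, was among the exceptions with -0.35. The part of this shift in the Fgfr2 values was not tested.

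Fgfr3 and Fgfr4, which together are needed for alveoli to form after birth in mice, differed little. Fgfr3 read 1912 on the array labelled double knockout and 2025 on the array labelled wild type by 1421841_at (-0.08), and 1288 (DKO) and 1286 (WT) by 1425796_a_at (0.00). Its probe sets differed by 0.08 on the log2 scale, the narrowest range of the genes with more than 1 passing probe set. Fgfr4 was carried by 5 probe sets, all on MOE430A. Probe set 1427846_x_at had 1958 (DKO) and 2034 (WT), a log2 ratio of -0.05. Probe set 1427777_x_at had 1659 (DKO) and 1759 (WT), a log2 ratio of -0.08. Probe set 1418596_at, designed from a RefSeq transcript, read higher, with 1917 (DKO) and 1492 (WT), a log2 ratio of 0.36. The 2 near 0 carry the suffix of probe sets that may bind other transcripts, and without such probe sets Fgfr4 had 0.36. The remaining Fgfr4 probe sets did not pass, with 445.7 (DKO) and 225.8 (WT) for 1427776_a_at, and 71.7 (DKO) and 118.9 (WT) for 1427845_at.

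Both Sprouty genes had log2 ratios a little above 0. Spry1, which curbs receptor tyrosine kinase signalling, had 4485 on the array labelled double knockout and 3858 on the array labelled wild type, a log2 ratio of 0.22. Spry2, its relative expressed in the growing tips of the lung epithelium, had 2662 (DKO) and 2229 (WT) by 1436584_at (0.26). Of passing MOE430A probe sets, 26.2% were as high as Spry1 and 22.5% as high as Spry2. By the shared probe sets, these ratios are 0.89 SD (Spry1) and 1.05 SD (Spry2) from 0. The other Spry2 probe set, below the filter, went the other way with 379.6 (DKO) and 487.4 (WT).

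**Figure D3:**
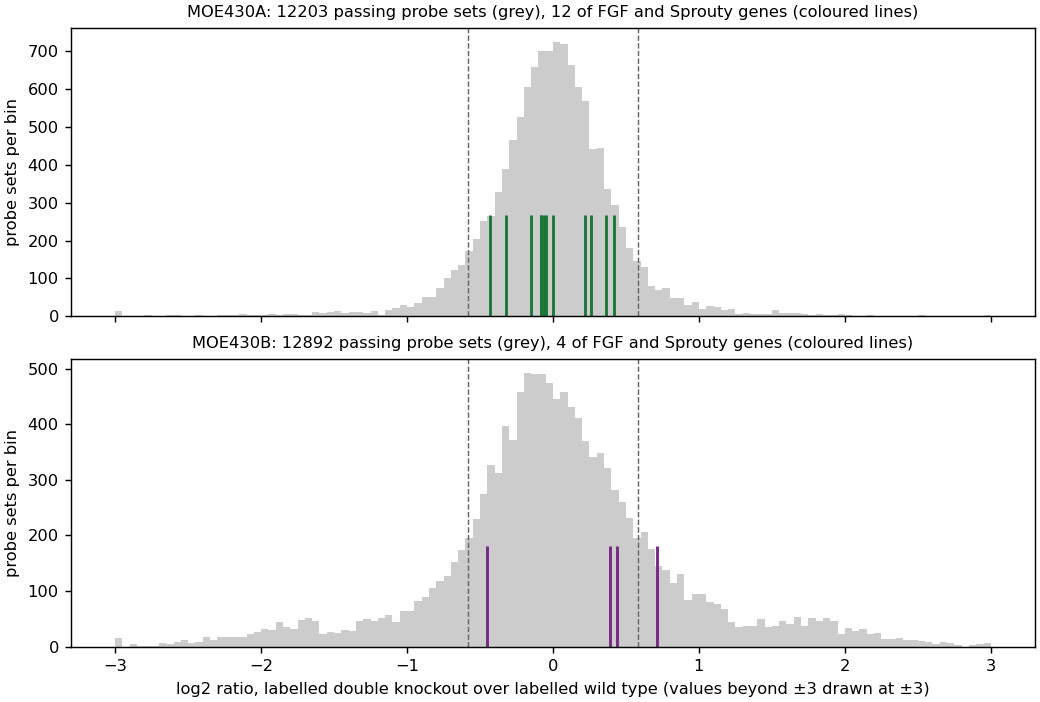
Number of passing probe sets (grey bars) by log2 ratio of the array labelled double knockout over the array labelled wild type, for MOE430A (12203 probe sets) and MOE430B (12892), with the 12 and 4 passing member probe sets as coloured lines and 1.5-fold as dashed lines. The members lie in the body of each distribution, which is wider on MOE430B (SD 0.82) than on MOE430A (0.47).

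The rest of the pathway was followed in 6 lists of 114 genes, each gene by its brightest passing probe set. Of these, 78 were measured, 47 of them lower and 31 higher in the arrays labelled double knockout, with a median log2 ratio of -0.10 against -0.016 for all 12559 genes measured. At 1.5-fold, 7 were lower and 5 higher, where 9.67% and 9.44% of all genes were. The median was -0.03 for the 48 genes read on MOE430A and -0.21 for the 30 read on MOE430B. All genes had medians of 0.013 on MOE430A and -0.051 on MOE430B. The 100 shared probe sets had a mean difference in log2 ratio, MOE430B minus MOE430A, of -0.22, and the part of this offset in the gap was not tested.

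Of 18 other FGF ligand genes, only 5 passed, 2 higher and 3 lower, with a median of -0.17 that turned to 0.11 with quantile normalization and 0.10 with a loess curve removed. Fgf1, an FGF that binds all the receptors, read 2703 on the array labelled double knockout and 2109 on the array labelled wild type (0.36). Its 3 passing probe sets ran from 0.19 to 1.83. The highest, on MOE430B with 1024 (DKO) and 288.9 (WT), passed the filter only through the DKO array, which fixed its direction. Fgf12, an intracellular FGF homologue of excitable cells, was the ligand gene past 2-fold, with 296.3 (DKO) and 791.8 (WT), a log2 ratio of -1.42, as were 3.64% of all genes in that direction. It stood only just above the filter in the labelled wild type array, and is named after its value was seen.

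Of 16 genes of co-receptors and binding proteins, 13 passed, 7 of them lower, with a median of -0.16 that turned to 0.14 on MOE430A alone. The lowest bright members were Flrt2 and Flrt3, membrane proteins that bind FGF receptors, at -0.58 and -0.49, but each had another probe set above 0. Among bright genes Flrt1 (0.32) and Sdc2, a heparan sulfate proteoglycan (0.34), were the highest, but the 4 passing probe sets of Sdc2 ran from -0.49 to 0.34. The related proteoglycan genes, named after their values were seen, disagreed more: Sdc1 ran from -1.68 to 0.72 over 4 probe sets and Sdc4 read -0.37 and 2.52. Of 21 heparan sulfate enzyme genes, 15 passed, 9 lower and 6 higher, with a median of -0.11 that became 0.01 with a loess curve removed. Sulf1, a sulfatase that edits heparan sulfate outside the cell and dampens FGF signals, read 3696 (DKO) and 5450 (WT) on MOE430B, a log2 ratio of -0.56. Its other passing probe set read 1684 (DKO) and 2532 (WT), a log2 ratio of -0.59. Hpse, which cleaves heparan sulfate, had -0.23. Extl3 and Hs2st1, enzymes that build and sulfate the chains, had 0.00 and 0.01, but the 4 passing probe sets of Hs2st1 ran from 0.01 to 0.32.

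Of 29 genes that carry the signal from the receptor, 22 passed, 12 lower and 10 higher, with a median of -0.06. Cbl, a ubiquitin ligase that removes active receptor tyrosine kinases, was the lowest bright gene of the FGF pathway lists. It had 4686 on the MOE430B array labelled double knockout and 11409 on the one labelled wild type, 2.43-fold lower. Its MOE430A probe sets were lower too, at -0.51 and -0.71. Map2k1, the kinase MEK1 that activates ERK, read 3266 (DKO) and 5495 (WT), a log2 ratio of -0.75, by its single passing probe set. Among bright genes Braf (0.32) and the adaptor Crkl (0.21) were the highest, though the 8 passing probe sets of Braf ran from -0.86 to 1.21 and the other of Crkl read -0.35. The dimmer adaptor genes Frs3 (at least 4.22-fold higher) and Shc2 (0.61, with -0.71 to 1.17 over 3 probe sets), named after their values were seen, were higher than these. Cbl is also known to be expressed in thymocytes, and the thymocyte and lymphocyte markers were lower in the same arrays. Their part in the Cbl value was not tested.

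Of 16 other feedback inhibitor genes, 12 passed, 9 lower and 3 higher, with a median of -0.14. Spry4, the Sprouty gene outside the members with a passing probe set, had 3931 (DKO) and 5791 (WT) by its brightest probe set, a log2 ratio of -0.56, and 1232 (DKO) and 1094 (WT) by another, a log2 ratio of 0.17. Dusp6, a phosphatase induced by ERK that switches ERK off, read 2237 (DKO) and 2012 (WT), a log2 ratio of 0.15, and Errfi1 had 0.08, with -0.21 by its other probe set. Dusp4, of the same family as Dusp6, had -0.21. Of 14 transcription factor genes that respond to FGF and ERK, 11 passed, 7 lower and 4 higher, with a median of -0.06. Etv5, an FGF10 response gene of the distal lung epithelium, had 12647 on the array labelled double knockout and 10693 on the array labelled wild type (0.24), with -0.01 and 0.09 by its other probe sets. Ets1 (-0.08), Ets2 (0.01) and Ier3 (-0.06) were near 0 by their brightest probe sets, though another Ets1 probe set read -0.69. At 1.5-fold, 1 of the 11 was higher and 1 lower. These, named after their values were seen, were Etv4, another FGF response gene, with 858.1 (DKO) and 533.3 (WT) on MOE430B, and Myc, with 532.3 (DKO) and 1054 (WT). Each passed the filter only through the array where it read higher.

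**Figure D4:**
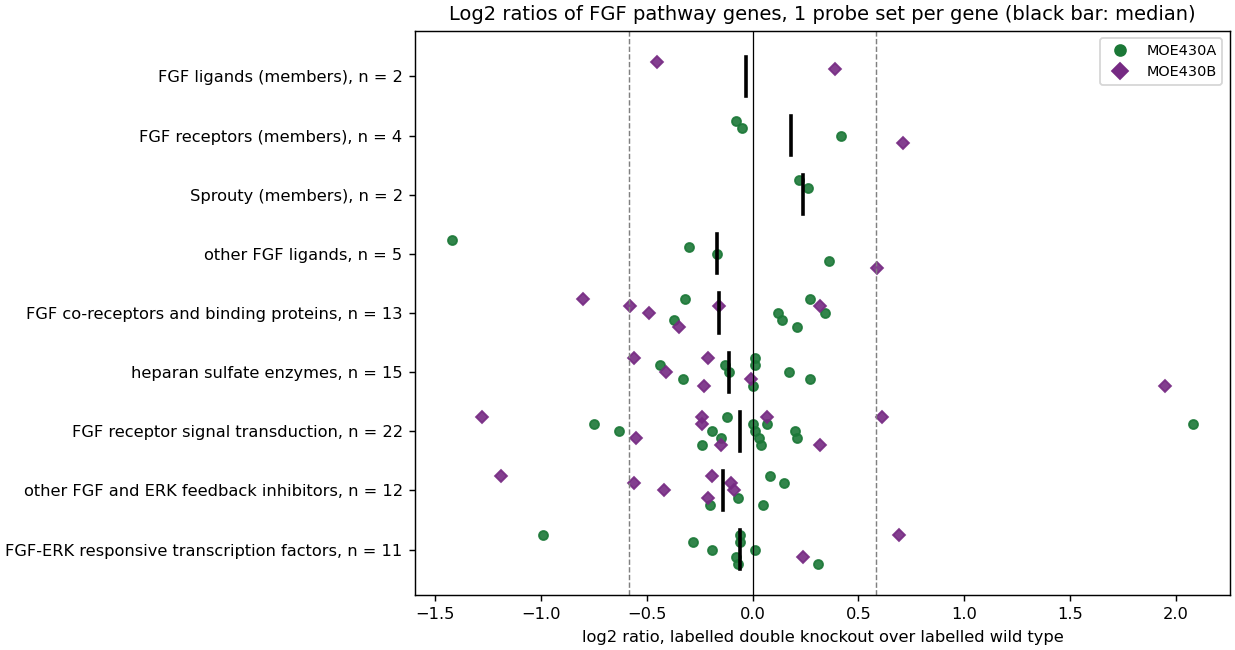
Log2 ratio of the array labelled double knockout over the array labelled wild type for the measured genes of the 3 member groups and 6 other FGF pathway lists, 1 probe set per gene, with MOE430A as circles and MOE430B as diamonds; black bars are medians and dashed lines mark 1.5-fold. The list medians run from -0.17 (other FGF ligands, which turned to 0.11 with quantile normalization) to 0.24, and the value of Frs3, at 2.08, is a lower bound.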

How the data were processed

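RNA from E18.5 lungs was measured on 4 Affymetrix arrays. The values the authors deposited are linear intensities, with a signal for each probe set, and the submitters' processing notes name MAS5. The sources used here do not give its version, its settings or detection calls. After trimming 2% at each end, the array means were 1500.2 to 1500.5, so the arrays had been brought to a common mean one by one, and the designs are not on a common scale. The number of arrays limits the precision of every value.

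Control probe sets, 64 on each design, were removed. Signals of the array labelled double knockout were divided by 1.004 (MOE430A) or 1.008 (MOE430B), which set the median ratio of passing probe sets to 1. The filter was the median signal of the design. Signals below the 25th percentile, 283.8 and 278.1, were raised to it, and ratios that involve them are bounds. Passing probe sets numbered 12203 and 12892. Names came from GEO's platform annotation, in which 20393 and 14674 probe sets had 1 symbol, 691 and 245 several, and 1606 and 7656 none. It names no build, so coordinates are left out. Where a gene needed 1 value, its brightest passing probe set was used. This favours MOE430B, where shared probe sets read a median 3.72-fold (labelled double knockout) and 4.28-fold (labelled wild type) higher.

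The rule for named genes took all members with every probe set, both targeted genes, and up to 4 bright genes of each list (2 highest and 2 lowest, mean signal at or above the 75th percentile). Genes of like pattern were not named, since each gene has 1 ratio. Members and lists were chosen with earlier results of these data known. The steps were tested on simulated arrays. The alternatives changed the scaling (none, quantile or loess), the floor (10th percentile or median), the filter (none or 75th percentile), the summary over probe sets (median, or without those that may cross-hybridise) and the design (each alone). The work used python 3.11.15 and statsmodels 0.14.6.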

Additional observations from a re-analysis of the deposited data

How the results depend on the processing

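No paired analysis was possible because each genotype has 1 array per design. None of the 105 values of single member probe sets under the alternative scalings, floors and filters moved by more than 1 SD of the shared probe sets (0.245) or changed sign. What changed was the choice of probe set. With the median over probe sets Fgfr1 had a log2 ratio of -0.15 and Fgf7 0.04. On MOE430A alone they had -0.15 and -0.32, and the median of the member genes was -0.05. Without probe sets that may cross-hybridise Fgfr4 had 0.36. The number of member genes at least 1.5-fold higher was 0 with the median over probe sets and on MOE430A alone, and 2 with no filter, where Fgf18 entered at its bound. The median of the other FGF ligands was 0.11 with quantile normalization, 0.10 with loess, 0.36 with a 75th percentile filter and 1.21 on MOE430B alone. Fgf12 no longer passed with quantile normalization or loess. Only Fgf1 passed the 75th percentile filter, and only Fgf1 and Fgf3 passed on MOE430B. There Fgf1 passed only through the array labelled double knockout, which fixed its direction. The median of co-receptors was 0.13 without probe sets that may cross-hybridise and 0.14 on MOE430A alone. That of responsive transcription factors was 0.41 on MOE430B alone, over Etv4, Etv5 and Ets2. These settings changed which genes and probe sets were read, and any further cause of the moves was not tested.

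Counts over all probe sets depended on the floor and the filter. In the order at least 1.5-fold higher, 1.5-fold lower, 2-fold higher and 2-fold lower, MOE430A had 470, 577, 71 and 105 with the floor at the median, 1369, 1530, 366 and 393 with no filter, and 271, 311, 54 and 79 when the filter was the 75th percentile. In that order MOE430B had 1545, 1255, 394 and 328 with the floor at the median, and 720, 704, 266 and 239 when the filter was the 75th percentile. With no filter MOE430B had 3662 (1.5-fold higher), 3203 (1.5-fold lower) and 1577 (2-fold lower). With loess the balance on MOE430B turned, with 1512, 2501, 570 and 1483. The settings above gave 779, 892, 220 and 250 on MOE430A and 2404, 1996, 1251 and 1031 on MOE430B.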

Other observations

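The values in this part were chosen after they were seen. Spred1, an inhibitor of RAS signalling related to the Sprouty proteins, had 6 passing probe sets across both designs, all lower in the arrays labelled double knockout, with log2 ratios from -0.81 to -0.08. Fgfrl1, an FGF receptor without a kinase domain, had 2 passing probe sets, at -0.35 on MOE430B and -0.33 on MOE430A. The MOE430A one, with 673.0 (DKO) and 848.3 (WT), passed the filter only through the WT array, which fixed its direction. Myc, a growth-promoting transcription factor that responds to ERK, read 532.3 on the array labelled double knockout and 1054 on the array labelled wild type by its single passing probe set (-0.99), and passed the filter only through the array labelled wild type.

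Frs3, an adaptor that docks on FGF receptors, read 1199 on the array labelled double knockout and 81.2 on the array labelled wild type, at least 4.22-fold higher by its single passing probe set. Ndst3, a heparan sulfate sulfotransferase, read 1705 on the MOE430B array labelled double knockout and 441.3 on the one labelled wild type, 3.86-fold higher, also by a single passing probe set. Each passed the filter only through the array labelled double knockout, so its direction was fixed by the filter. In either direction, 3.85% of passing probe sets on MOE430A, which carries the Frs3 probe set, and 17.7% on MOE430B differed by 2-fold.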
